A study of Caenorhabditis elegans with 9 samples.

Results

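The genes described here are the glutathione transferases of Caenorhabditis elegans and the enzymes that make, use or regenerate glutathione, measured on expression arrays in whole worms that lack one or both of a pair of DNA repair genes. Members were taken by name: every gene whose symbol begins with gst-, gsto- or gpx- and a number, together with gcs-1, gss-1, gsr-1, trxr-1 and trxr-2, provided that a probe set on the array carries that symbol and no other. This gave 56 genes on 61 probe sets, of 17118 genes that have a probe set of their own. They are 40 gst, 3 gsto and 8 gpx genes and the 5 genes of glutathione synthesis and of glutathione and thioredoxin reduction. The RefSeq annotation (WBcel235) lists 60 genes of these names, and gst-25, gst-34, gst-35 and gst-37 had no probe set of their own and were not analysed here. A further probe set shared by F56A4.3 and gst-10 was left out.

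Glutathione is a small thiol peptide that buffers the redox state of the cell. Glutathione transferases join it to electrophiles such as lipid peroxidation products, and glutathione peroxidases use it, or thioredoxin, to reduce peroxides. In C. elegans many of these genes are expressed in the intestine, and the transcription factor SKN-1, the worm counterpart of the mammalian Nrf factors, switches on several of them under oxidative or electrophilic stress. gst-4 is the best known of these targets, and its promoter is widely used as a reporter.

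The strains were nth-1(ok724), which lacks a DNA glycosylase that starts base excision repair of oxidised bases (3 arrays), xpa-1(ok698), which lacks a damage recognition protein of nucleotide excision repair (2 arrays), the double mutant nth-1;xpa-1, which carries both deletions (2 arrays), and the wild-type strain N2 (2 arrays). All worms were unsynchronised populations of mixed stage and were fed HT115(DE3) bacteria on plates until the food was gone. Per the methods the mutants carry deletion alleles, had been backcrossed, and the double mutant was made for the study, whereas the description deposited with the arrays calls the strains RNAi mutants, and the 2 sources were not reconciled here. Worms are not otherwise described by age or sex, and because each RNA came from a mixed population, fewer cells of a type and less RNA per cell cannot be told apart in any result below. All values are log2 expression values, so a difference of 1 is a doubling. Differences were tested with limma in 1 fit of the 9 arrays and were called when the p-value, adjusted over 22548 probe sets, was below 0.05.

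The arrays differed in ways the strains do not settle. The xpa-1 transcript was at 5.66 to 6.59 in the xpa-1 and double mutant arrays and at 10.35 to 10.69 in the nth-1 and N2 arrays, as labelled, whereas the nth-1 transcript was at 9.32 to 10.37 throughout. The loss of nth-1 is therefore not checked by these data: its transcript was not lower than in N2 (9.37 to 9.63 in the nth-1 and double mutant arrays, against 9.32 and 9.63 in N2), and the position of its probes relative to the deletion is not given, so nth-1 comparisons rest on the label. The hybridisation control BioC stood at 2 levels: 9.63 to 10.04 in both double mutant arrays, xpa-1 replicate 1 and both N2 arrays, and 8.20 to 8.29 in the 3 nth-1 arrays and xpa-1 replicate 2. All nth-1 arrays lie at the low level and all double mutant and N2 arrays at the high level, so a difference between nth-1 and either of these 2 strains and a difference between BioC levels cannot be told apart except through the 2 xpa-1 arrays. nth-1 replicate 3 stood apart from replicates 1 and 2 (Pearson correlation over all probe sets 0.95 and 0.9515, against 0.9911 between those 2). It lay more than 1 log2 unit from the mean of the other nth-1 arrays in 5 of the 56 genes (8.93%, against 11.5% of all genes), namely gst-10, gst-15, gst-19, gst-21 and gst-24. Over the 56 genes the median spread between arrays of a strain was 0.21, against 0.214 over all genes. xpa-1 replicate 2 correlated more with nth-1 replicate 1, also at the low BioC level, than with xpa-1 replicate 1 (0.9865 against 0.9796 over all probe sets). Over the 56 genes these correlations were 0.9913 and 0.9771.

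gst-4 was higher in both single mutants and not in the double mutant. Its values were 8.15, 8.37 and 7.96 in nth-1, 7.97 and 7.95 in xpa-1, 6.89 and 7.09 in the double mutant, and 6.90 and 7.02 in N2. All 5 arrays of the single mutants lie above all 4 arrays of the double mutant and N2, whose ranges overlap. The rise over N2 was 1.2 in nth-1 (standard error 0.16, adjusted p = 0.00413, 2.30-fold) and 1.0 in xpa-1 (standard error 0.18, adjusted p = 0.0127, 2.0-fold). In the double mutant the difference from N2 was 0.03, with a 95% confidence interval of -0.38 to 0.44. Against the single mutants, gst-4 in the double mutant was lower by 1.17 than in nth-1 (adjusted p = 0.00143) and by 0.97 than in xpa-1 (adjusted p = 0.00431). These 2 falls kept their call when any 1 array was left out, and with the BioC level as a block the first was 1.19 (adjusted p = 0.0706) and the second 0.98 (adjusted p = 0.0214). The rise in nth-1 lost its call without either N2 array (highest adjusted p = 0.0672), and the rise in xpa-1 lost it without xpa-1 replicate 2 or either N2 array (highest adjusted p = 0.123). With the BioC level as a block the nth-1 rise was 1.22 (adjusted p = 0.218) and the xpa-1 rise 1.01 (adjusted p = 0.061).

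**Figure D1:**
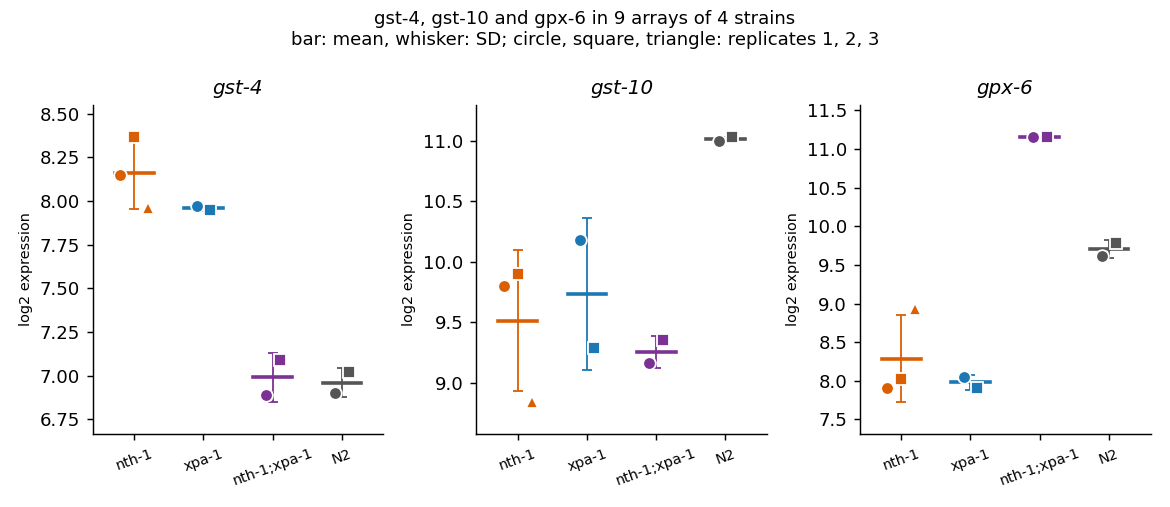
Log2 expression of gst-4, gst-10 and gpx-6 (y axis) in the 4 strains (x axis), with a symbol per array (circle, square and triangle for replicates 1, 2 and 3), the mean as a bar and the SD as a whisker. gst-4 is high in the single mutants only, gst-10 is highest in N2, and gpx-6 is low in the single mutants and high in the double mutant, at 11.15 and 11.16.

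Of the neighbours of gst-4 on the chromosome, gst-3 did not share its pattern, and gst-2 had too low a signal to show whether it did. gst-3, gst-2 and gst-4 follow each other on chromosome IV with no other annotated gene between them. gst-3, which encodes another transferase, was at 6.43, 6.38 and 7.04 in nth-1, 6.24 and 6.41 in xpa-1, 9.37 and 9.44 in the double mutant, and 8.20 and 8.16 in N2. The 4 strains fall in 3 levels that do not overlap: both single mutants lowest, N2 between, and the double mutant highest. gst-3 thus fell by 1.56 in nth-1 (standard error 0.21, adjusted p = 0.00373) and by 1.85 in xpa-1 (standard error 0.23, adjusted p = 0.00304), and rose by 1.23 in the double mutant (standard error 0.23, adjusted p = 0.0169), each against N2. With the BioC level as a block the nth-1 fall was 1.73 (adjusted p = 0.173). The calls in xpa-1 and the double mutant remained (adjusted p = 0.0195 and 0.0248). The fall in xpa-1 kept its call without any 1 array, the fall in nth-1 lost it without either N2 array (highest adjusted p = 0.0544), and the rise in the double mutant lost it without any 1 array of the double mutant or N2 (highest adjusted p = 0.144). gst-2, which lies between them and was named after its values were seen, spanned 5.27 to 5.52 over the 9 arrays, and its differences from N2 were -0.01, -0.04 and 0.09 for nth-1, xpa-1 and double mutants, none of them called. Its mean lay at percentile 8.3 of the probe sets, so a change in gst-2 could go unseen.

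gst-10 was lower in all 7 mutant arrays than in N2. GST-10 conjugates hydroxynonenal, a product of lipid peroxidation. Values were 9.80, 9.90 and 8.84 in nth-1, 10.18 and 9.29 in xpa-1, 9.16 and 9.35 in the double mutant, and 11 and 11.03 in N2. The 3 mutants overlap each other, and none of the differences between them was called (-0.26 for the double mutant against nth-1, -0.48 for the double mutant against xpa-1, 0.22 for xpa-1 against nth-1). Against N2 the fall was 1.5 in nth-1 (standard error 0.36, adjusted p = 0.0343) and 1.76 in the double mutant (standard error 0.39, adjusted p = 0.0315). The difference of -1.28 in xpa-1 was not called (standard error 0.39, adjusted p = 0.0722), and its 95% confidence interval, -2.18 to -0.38, holds the falls of both other mutants. Without nth-1 replicate 3, in which gst-10 was lowest, the xpa-1 difference passed (adjusted p = 0.00528). Both calls ended without any 1 double mutant or N2 array, and the nth-1 call also without nth-1 replicate 1 (highest adjusted p = 0.202 for nth-1 and 0.197 for the double mutant). With the BioC level as a block the nth-1 difference was -0.61 (adjusted p = 0.795), while that of the double mutant, whose arrays share the level of N2, was -1.76 (adjusted p = 0.0277).

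gpx-6 was low in both single mutants and high in the double mutant. The gene encodes a peroxidase like mammalian GPX4, which reduces lipid hydroperoxides in membranes. It was at 7.91, 8.02 and 8.93 in nth-1, 8.05 and 7.91 in xpa-1, 11.16 and 11.15 in the double mutant, and 9.62 and 9.79 in N2. The single mutants, N2 and the double mutant do not overlap. gpx-6 fell by 1.42 in nth-1 (standard error 0.30, adjusted p = 0.0208, 0.374 of the N2 level) and by 1.73 in xpa-1 (standard error 0.33, adjusted p = 0.0151, 0.302 of the N2 level), and rose by 1.45 in the double mutant (standard error 0.33, adjusted p = 0.0314, 2.73-fold). The double mutant lay 2.87 above nth-1 (adjusted p = 0.00047) and 3.17 above xpa-1 (adjusted p = 0.000469), and these 2 differences kept their call without any 1 array and with the BioC level as a block (adjusted p = 0.0455 and 0.00424). The calls against N2 ended without either N2 array and without either array of the mutant concerned (for nth-1, replicate 1 or 2), with highest adjusted p values of 0.171 in nth-1, 0.119 in xpa-1 and 0.2 in the double mutant. With the block the difference from N2 was -1.28 in nth-1 (adjusted p = 0.502), -1.66 in xpa-1 (adjusted p = 0.082) and 1.45 in the double mutant (adjusted p = 0.0432).

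The other peroxidase genes followed gpx-6 in part. gpx-2, also of the GPX4 type, was at 7.70, 7.35 and 7.23 in nth-1, 7.36 and 7.60 in xpa-1, 8.79 and 8.71 in the double mutant, and 8.36 and 8.39 in N2. It has the same order of strains as gpx-6 over a smaller range: it fell by 0.95 in nth-1 (adjusted p = 0.0154) and by 0.90 in xpa-1 (adjusted p = 0.0269), while the double mutant lay 0.38 above N2 without a call (adjusted p = 0.276). gpx-3 was at 6.32, 6.47 and 7.22 in nth-1, 6.17 and 6.01 in xpa-1, 8.14 and 8.08 in the double mutant, and 7.59 and 7.41 in N2. These groups again do not overlap, with the fall of 1.41 in xpa-1 called (adjusted p = 0.0161) and the differences of -0.83 in nth-1 and 0.61 in the double mutant not called (adjusted p = 0.0683 and 0.194) unless nth-1 replicate 3 was left out (-1.1, adjusted p = 0.000573, and 0.61, adjusted p = 0.0104). Both gpx-2 and gpx-3 were higher in the double mutant than in either single mutant, by 1.32 and 1.27 for gpx-2 and by 1.44 and 2.02 for gpx-3, against nth-1 and xpa-1 in that order, and these 4 calls remained without any 1 array. With the BioC level as a block, gpx-3 lost its call against nth-1 (1.28, adjusted p = 0.158), and the other rises over the single mutants remained called. gpx-4 fell by 0.62 in nth-1 (adjusted p = 0.0226), with 6.87, 6.79 and 6.72 in nth-1 against 7.36 and 7.46 in N2. The falls against N2 were less stable: without either N2 array all 4 lost their call, with highest adjusted p values of 0.136 and 0.161 for gpx-2 in nth-1 and xpa-1, 0.128 for gpx-3 in xpa-1 and 0.187 for gpx-4 in nth-1. The calls in xpa-1 also ended without either xpa-1 array, that of gpx-2 without either double mutant array, and that of gpx-4 without nth-1 replicate 2. With the BioC level as a block none of these 4 falls against N2 was called. The adjusted p was then 0.253 and 0.0686 for gpx-2 in nth-1 and xpa-1, 0.0914 for gpx-3 in xpa-1 and 0.559 for gpx-4 in nth-1.

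gpx-7 parted from gpx-6 in the double mutant. Against N2 it lay lower in the single mutants too, by 0.39 in nth-1 and 0.57 in xpa-1, without a call. This gene, also of the GPX4 type, was lowest in the double mutant, at 8.50, 9.0 and 8.35 in nth-1, 8.18 and 8.70 in xpa-1, 7.63 and 7.63 in the double mutant, and 9.07 and 8.95 in N2. It fell by 1.38 in the double mutant against N2 (standard error 0.26, adjusted p = 0.0188), by 0.99 against nth-1 (adjusted p = 0.0134) and by 0.81 against xpa-1 (adjusted p = 0.0422). With the BioC level as a block these differences were -1.38 (adjusted p = 0.0187), -0.47 (adjusted p = 0.523) and -0.55 (adjusted p = 0.21). Leaving out either double mutant array ended all 3 calls, leaving out either N2 array ended those against N2 and xpa-1, and leaving out nth-1 replicate 1 or xpa-1 replicate 2 ended that against xpa-1 (highest adjusted p = 0.149 against N2, 0.0875 against nth-1 and 0.209 against xpa-1). gpx-1, the remaining gene of this type, was at 8.17, 8.55 and 8.67 in nth-1, 7.73 and 7.93 in xpa-1, 7.82 and 8.04 in the double mutant, and 8.0 and 7.79 in N2. Its 3 nth-1 arrays lie above the other 6, but the difference of 0.57 from N2 was not called (adjusted p = 0.106). gpx-5, the neighbour of gpx-3 on the X chromosome, had differences from N2 of 0.28 in nth-1, -0.50 in xpa-1 and -0.42 in the double mutant, none of them called (without nth-1 replicate 3, that in xpa-1 had an adjusted p of 0.0424). gpx-8, a pseudogene in RefSeq, differed by 0.08, 0.02 and 0.16 on its brighter probe set, also without a call.

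**Figure D2:**
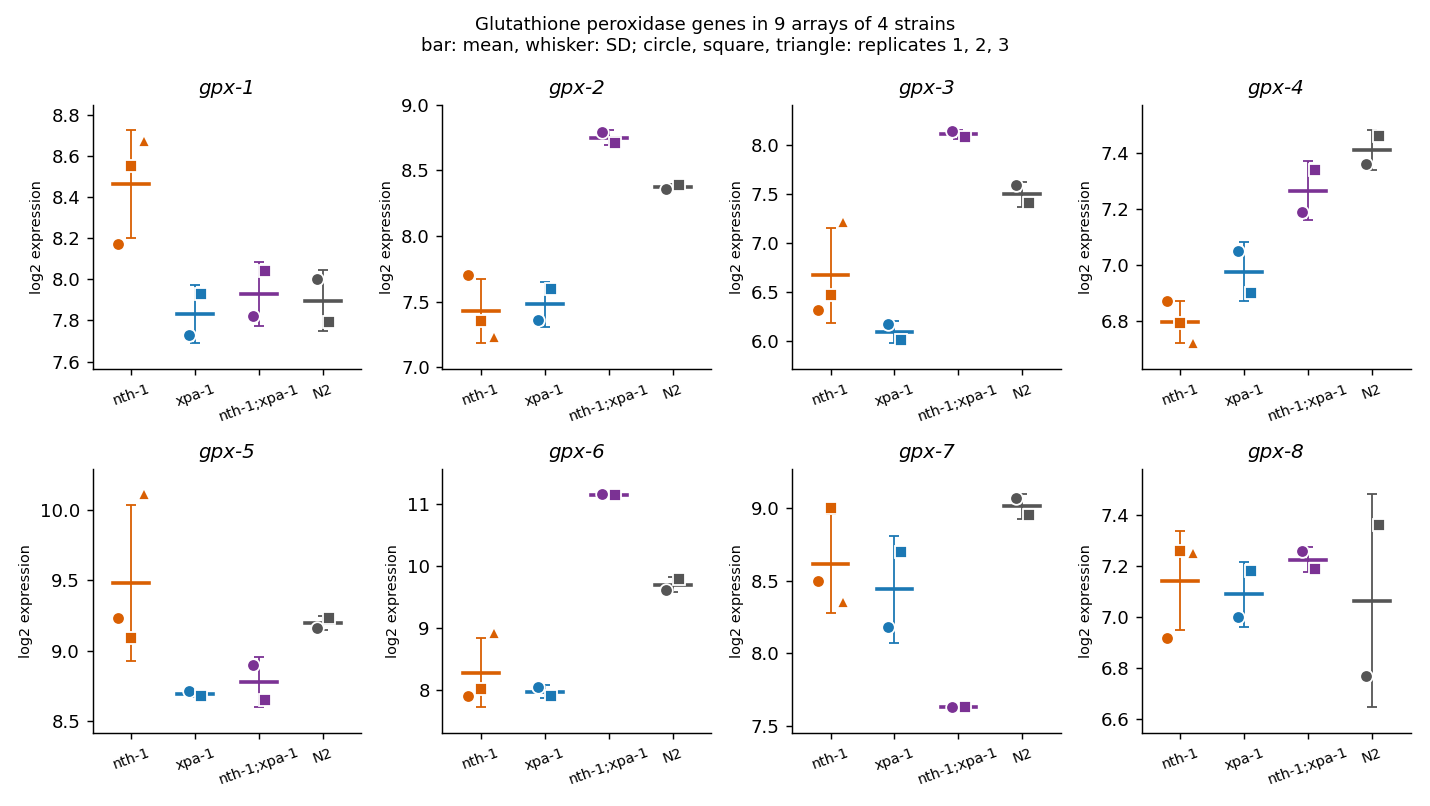
Log2 expression (y axis, scaled per gene) of the 8 gpx genes in the 4 strains, with a symbol per array, the mean as a bar and the SD as a whisker. gpx-2, gpx-3 and gpx-6 share the order single mutants, N2, double mutant, whereas gpx-7 is lowest in the double mutant, at 7.63 in both arrays.

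Over all 56 genes, 7 rose and 10 fell in nth-1 against N2. That is 12.5% and 17.9%, where 2.8% of all genes rose and 7.62% fell. In xpa-1, 2 rose and 9 fell (3.57% and 16.1%, against 3.36% and 7.52% of all genes). In the double mutant, 4 rose and 3 fell (7.14% and 5.36%, against 4.5% and 4.59% of all genes). The rising share in xpa-1 and both shares in the double mutant were thus close to those of all genes. The median difference from N2 was 0.00 in nth-1, -0.25 in xpa-1 and -0.04 in the double mutant, beside -0.08, -0.07 and 0.05 over all genes. In total 33 of the 56 genes were called in none of the 3 mutants against N2: gst-1, gst-2, gst-8, gst-11, gst-13, gst-14, gst-15, gst-17, gst-18, gst-19, gst-21, gst-23, gst-24, gst-26, gst-27, gst-29, gst-30, gst-31, gst-32, gst-33, gst-36, gst-38, gst-39, gst-41, gst-44, gsto-2, gpx-1, gpx-5, gpx-8, gcs-1, gss-1, trxr-1 and trxr-2. Among them gst-1, a pi class transferase, was at 11.75, 11.88 and 11.59 in nth-1, 11.54 and 11.47 in xpa-1, 11.63 and 11.44 in the double mutant, and 11.64 and 11.66 in N2, so that its strains overlapped. With quantile normalization the split in the double mutant became 3 rises and 4 falls.

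These counts depend on single arrays. In nth-1 the 17 calls became 2 without N2 replicate 1 and 4 without N2 replicate 2, and 7 to 9 without nth-1 replicate 1 or 2 or either double mutant array. In xpa-1 the 11 calls became 4 without either N2 array, 5 without xpa-1 replicate 2, and 7 without xpa-1 replicate 1 or either double mutant array. In the double mutant the 7 calls became 0 without any 1 of its own or the N2 arrays. Leaving out nth-1 replicate 3 raised the counts instead, to 25 in nth-1, 23 in xpa-1 and 18 in the double mutant. The share of all genes called rose with them, to 28%, 29% and 27.1% without that array, against 10.4%, 10.9% and 9.1% with it. The calls that remained whichever array was left out were gsto-1 and gst-42 in nth-1, and gst-3, gst-20, gst-42 and gsto-1 in xpa-1. With the BioC level as a block 0 calls remained in nth-1 (at an unadjusted p below 0.05, 5 genes were higher and 7 lower), 5 in xpa-1 and all 7 in the double mutant, while the share of all genes called was 0.473%, 3.58% and 9.27%.

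Among the 40 gst genes, 5 rose and 7 fell in nth-1 (12.5% and 17.5%, against 2.8% and 7.62% of all genes). In xpa-1, 1 rose and 6 fell (2.5% and 15%, against 3.36% and 7.52%), and in the double mutant 2 rose and 1 fell (5% and 2.5%, against 4.5% and 4.59%). The rising share in xpa-1 and both shares in the double mutant were thus near or below those of all genes. gst-42, a zeta class enzyme of tyrosine breakdown, was at 9.06, 9.25 and 8.89 in nth-1, 8.91 and 8.90 in xpa-1, 10.48 and 10.39 in the double mutant, and 10.82 and 10.86 in N2. It fell by 1.77 in nth-1 (standard error 0.18, adjusted p = 0.000967) and by 1.94 in xpa-1 (standard error 0.20, adjusted p = 0.00133), and the double mutant was near N2 (-0.41, adjusted p = 0.229). gst-43 was at 8.38, 8.71 and 9.13 in nth-1, 8.25 and 8.07 in xpa-1, 9.19 and 9.31 in the double mutant, and 9.40 and 9.28 in N2. Only its fall of 1.18 in xpa-1 was called against N2 (adjusted p = 0.0243), and without nth-1 replicate 3 its difference of -0.80 in nth-1 also was (adjusted p = 0.00911). gst-22 fell by 1.32 in xpa-1 (adjusted p = 0.0377), where replicate 1 was lower than replicate 2 (7.95 and 8.99 in xpa-1, against 9.74 and 9.85 in N2). gst-5 fell by 0.83 in nth-1 (adjusted p = 0.0335). Each of these last 3 calls ended without any 1 N2 or double mutant array and without some array of the mutant itself: either for gst-43, replicate 1 for gst-22, replicate 1 or 2 for gst-5 (highest adjusted p = 0.173, 0.201 and 0.233). That of gst-22 ended without nth-1 replicate 1 or 2 as well. With the BioC level as a block gst-22 and gst-42 kept their calls in xpa-1 (adjusted p = 0.0178 and 0.0108). The nth-1 differences of gst-42 and gst-5 were then -1.76 (adjusted p = 0.0993) and -1.26 (adjusted p = 0.222). That of gst-43 in xpa-1 was -1.09 (adjusted p = 0.116).

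Many gst genes lie side by side on chromosome II in RefSeq, in 3 groups with no more than 20 kb from one member to the next. In the group of gst-6, gst-7, gst-8 and gst-9, 3 of 4 genes rose in nth-1, and the same 3 were lower in the double mutant than in either single mutant. Of all genes, 2.8% rose in nth-1 against N2, and 14.6% and 14.5% fell in the double mutant against nth-1 and xpa-1. gst-7 was at 11.17, 11.17 and 11.22 in nth-1, 11.18 and 10.91 in xpa-1, 10.11 and 9.94 in the double mutant, and 10.59 and 10.54 in N2. It rose by 0.62 in nth-1 (adjusted p = 0.0377), gst-6 by 0.93 (adjusted p = 0.0481) and gst-9 by 1.06 (adjusted p = 0.0228). With the BioC level as a block these rises were 0.89 (adjusted p = 0.266), 0.30 (adjusted p = 0.866) and 1.12 (adjusted p = 0.441). Under that block the falls of gst-6 in the double mutant were 0.52 against nth-1 (adjusted p = 0.47) and 0.48 against xpa-1 (adjusted p = 0.264). Those of gst-9 had adjusted p values of 0.108 and 0.0498 in that order, and those of gst-7 remained called. The rises of gst-7 and gst-6 ended without nth-1 replicate 1 or 2 or any 1 double mutant or N2 array, and that of gst-9 without nth-1 replicate 2 or N2 replicate 1 (highest adjusted p = 0.244, 0.281 and 0.198), whereas the falls of gst-7 in the double mutant against nth-1 (1.16, adjusted p = 0.00117) and xpa-1 (1.02, adjusted p = 0.00263) did not. The fall of gst-6 against nth-1 ended without either double mutant array (highest adjusted p = 0.0653) and its fall against xpa-1 without nth-1 replicate 2, xpa-1 replicate 2 or any 1 double mutant or N2 array (0.262), and that of gst-9 against xpa-1 without any 1 array of those strains (0.0791). Without nth-1 replicate 3, gst-7 was also called in xpa-1 (0.48, adjusted p = 0.0345) and lower in the double mutant (-0.54, adjusted p = 0.0225) than in N2, and gst-9 was called in xpa-1 (0.74, adjusted p = 0.0487). gst-8 was not called in any comparison of 2 strains with all arrays in the fit, and without nth-1 replicate 3 it was lower in the double mutant than in nth-1 (-0.61, adjusted p = 0.012) and xpa-1 (-0.56, adjusted p = 0.0172). With all arrays it had differences from N2 of 0.03 in nth-1, 0.15 in xpa-1 and -0.42 in the double mutant. The probe set of gst-9 may pick up related transcripts, as its design name marks shared probes, and its mean was low, at percentile 11.5 of the probe sets.

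The second and largest group, gst-20, gst-24, gst-15, gst-14, gst-12, gst-16, gst-19, gst-17 and gst-18, had falls where the first group had rises. In nth-1, 3 of the 9 fell and none rose, in xpa-1, 2 fell and none rose, and in the double mutant none was called against N2, while 4 rose against each single mutant: gst-20, gst-16, gst-12 and gst-17. Beside these counts, 7.62% of all genes fell in nth-1 and 7.52% in xpa-1 against N2. In the double mutant 22.9% of all genes rose against nth-1 and 20.8% against xpa-1. gst-20 was at 8.80, 8.76 and 8.42 in nth-1, 8.16 and 8.44 in xpa-1, 11.08 and 10.98 in the double mutant, and 10.28 in both N2 arrays. It fell by 1.62 in nth-1 (standard error 0.20, adjusted p = 0.00252) and by 1.98 in xpa-1 (standard error 0.21, adjusted p = 0.00186), and the double mutant lay 2.37 above nth-1 (adjusted p = 0.000222) and 2.73 above xpa-1 (adjusted p = 0.00023). With the BioC level as a block the fall of gst-20 in nth-1 was 1.90 (adjusted p = 0.0952), and its fall in xpa-1 and both rises remained called. Its difference of 0.75 from N2 in the double mutant was not called (adjusted p = 0.0647), although both arrays lie above both of N2, and had an adjusted p of 0.00767 without nth-1 replicate 3. The fall in nth-1 reached an adjusted p of 0.0503 without N2 replicate 1, and the other 3 calls remained without any 1 array. gst-16 and gst-12 moved likewise on a smaller scale, with falls of 0.63 (adjusted p = 0.043) and 0.77 (adjusted p = 0.04) in nth-1 and, for gst-16, of 0.76 in xpa-1 (adjusted p = 0.0321). With the BioC level as a block the nth-1 differences were -0.13 (adjusted p = 0.897) and -0.19 (adjusted p = 0.872). That of gst-16 in xpa-1 was -0.505 (adjusted p = 0.137). These 3 falls ended without any 1 N2 or double mutant array, those in nth-1 also without nth-1 replicate 1 or 2 and that in xpa-1 without xpa-1 replicate 2 (highest adjusted p = 0.255, 0.227 and 0.188). In the double mutant the rises of gst-16 over both single mutants remained without any 1 array. With the BioC level as a block they were 0.72 over nth-1 (adjusted p = 0.102) and 1.09 over xpa-1 (adjusted p = 0.00549). Under that block gst-12 lay 0.23 above nth-1 (adjusted p = 0.642) and 0.43 above xpa-1 (adjusted p = 0.148), and gst-17 lay 0.26 above nth-1 (adjusted p = 0.557) and 0.36 above xpa-1 (adjusted p = 0.171). The rise of gst-12 over nth-1 ended without either double mutant array and that over xpa-1 also without xpa-1 replicate 2 or either N2 array (highest adjusted p = 0.0968 and 0.152). The rises of gst-17 ended without any 1 array apart from nth-1 replicate 3 and, for that over nth-1, the xpa-1 arrays (highest adjusted p = 0.219 over nth-1 and 0.213 over xpa-1). gst-20, gst-16 and gst-19 have probe sets marked as shared.

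nth-1 replicate 3 set the level of the neighbours gst-24 and gst-15 in that strain. gst-24 was at 6.39, 6.98 and 9.20 in nth-1, 7.24 and 6.22 in xpa-1, 8.59 and 8.56 in the double mutant, and 8.53 and 8.48 in N2. gst-15 was at 7.09, 7.85 and 9.77 in nth-1, 7.61 and 7.68 in xpa-1, 9.07 and 9.11 in the double mutant, and 8.12 and 8.18 in N2. Replicates 1 and 2 of nth-1 lie below N2 for both genes and replicate 3 above, and neither gene was called in any comparison. Without replicate 3, gst-24 was lower than N2 by 1.82 in nth-1 (adjusted p = 0.00239) and by 1.77 in xpa-1 (adjusted p = 0.00254). gst-15 then was lower by 0.68 in nth-1 (adjusted p = 0.0474) and higher by 0.94 in the double mutant (adjusted p = 0.0126). The differences of gst-14, gst-17, gst-18 and gst-19 from N2 were between -0.36 and 0.17, and none was called.

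In the third group on chromosome II, from gst-26 to gst-32, 1 of 7 genes rose in nth-1 and none was called in xpa-1 or the double mutant against N2. Against each single mutant, 3 of the 7 fell in the double mutant: gst-26, gst-28 and gst-29. The shares of all genes were 2.8% for rises in nth-1, and 14.6% and 14.5% for falls in the double mutant against nth-1 and xpa-1. Against xpa-1 all 3 calls ended without some arrays: xpa-1 replicate 1 or 2 or double mutant replicate 2 for gst-26, xpa-1 replicate 2 or either double mutant array for gst-28, and xpa-1 replicate 1 or either double mutant array for gst-29 (highest adjusted p = 0.131, 0.154 and 0.0794). Only gst-29 kept its call against xpa-1 with the BioC level as a block (adjusted p = 0.0382, against 0.0682 for gst-26 and 0.155 for gst-28). Against nth-1 none of the 3 genes kept it (adjusted p = 0.131 for gst-26, 0.259 for gst-28 and 0.0906 for gst-29). Without nth-1 replicate 3, gst-26 and gst-29 also rose in nth-1 and fell in the double mutant against N2, gst-39 fell by 0.73 in xpa-1 (adjusted p = 0.00753) and by 0.78 in the double mutant (adjusted p = 0.00604), and gst-27 fell by 0.70 in xpa-1 (adjusted p = 0.00968). gst-28 was at 8.96, 9.17 and 8.11 in nth-1, 7.61 and 8.49 in xpa-1, 6.63 and 6.83 in the double mutant, and 7.49 and 7.35 in N2. The rise in nth-1 was 1.33 (standard error 0.34, adjusted p = 0.0445) and ended without any 1 array of N2, of the double mutant, or nth-1 replicate 1 or 2, with adjusted p values up to 0.246. The fall in the double mutant against nth-1 was 2.02 (adjusted p = 0.00303) and kept its call without any 1 array, but with the BioC level as a block it was 1.14 (adjusted p = 0.259). Under that block the rise in nth-1 was 0.45 (adjusted p = 0.855).

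The omega class genes differed among themselves. Omega class enzymes can reduce dehydroascorbate with glutathione. gsto-1 had the largest rise of the 56 genes in nth-1 and in xpa-1. It was at 12.40, 12.23 and 12.17 in nth-1, 11.88 and 12.24 in xpa-1, 9.54 and 9.51 in the double mutant, and 10.49 and 10.69 in N2. It rose by 1.68 in nth-1 (standard error 0.16, adjusted p = 0.000773, 3.20-fold) and by 1.47 in xpa-1 (standard error 0.17, adjusted p = 0.00261, 2.77-fold), and fell by 1.06 in the double mutant (standard error 0.17, adjusted p = 0.0112, 0.478 of the N2 level). The rises remained without any 1 array (with the BioC level as a block, 1.32 with an adjusted p of 0.108 in nth-1), and the fall ended without any 1 array of the double mutant or N2 (highest adjusted p = 0.129). gsto-3 was at 9.04, 8.24 and 8.39 in nth-1, 8.58 and 9.25 in xpa-1, 10.26 and 10.22 in the double mutant, and 8.73 and 8.70 in N2, and rose only in the double mutant, by 1.52 (standard error 0.31, adjusted p = 0.0234, highest without an array of the double mutant or N2 0.175). gsto-2 stayed between 5.95 and 6.40 in all arrays, with differences from N2 of 0.06, 0.06 and 0.15 and no call in any comparison. Its mean was at percentile 21.3 of the probe sets.

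**Figure D3:**
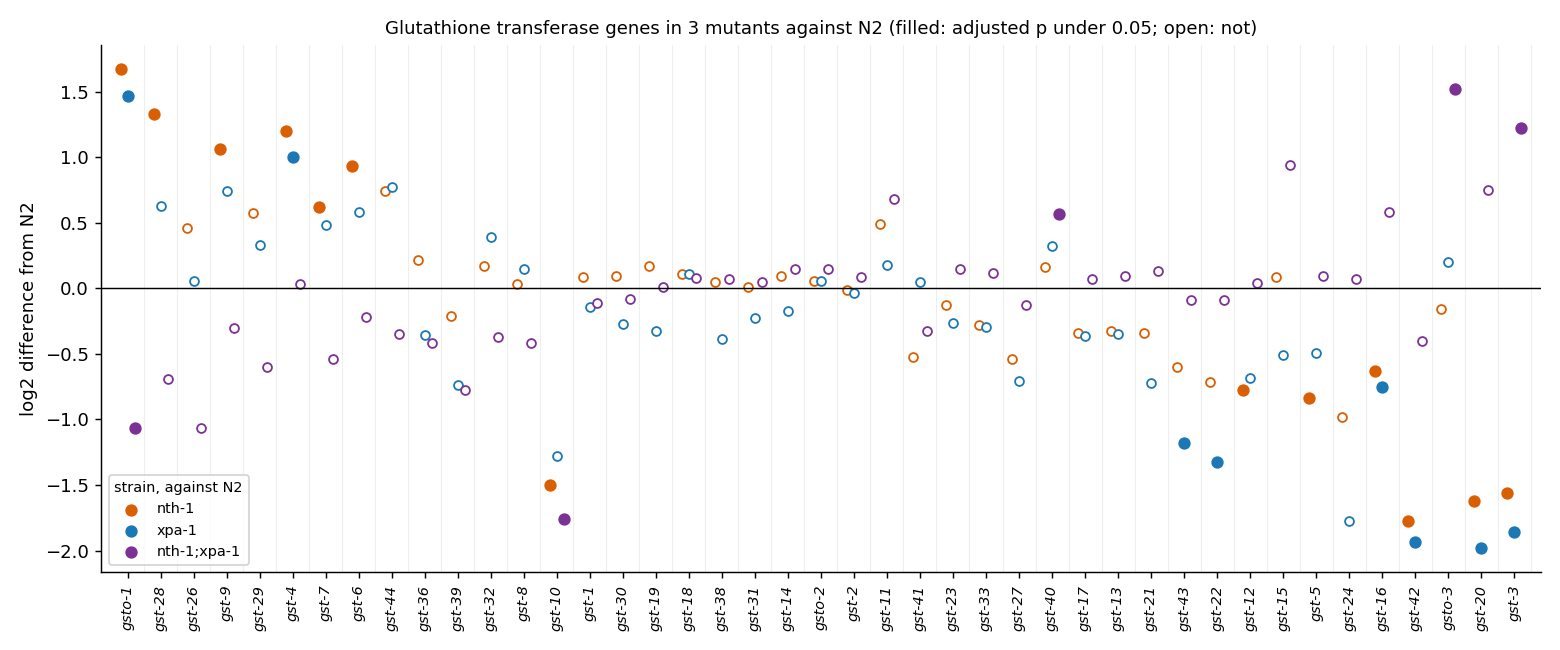
Log2 difference from N2 (y axis) of the 43 gst and gsto genes (x axis, ordered by the double mutant minus nth-1) in the 3 mutant strains. Filled points passed an adjusted p of 0.05; gsto-1 is at 1.68, 1.47 and -1.06 at the left end and gst-3 at -1.56, -1.85 and 1.23 at the right end.

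Of the 5 enzymes of glutathione synthesis and of reduction, 1 was called in nth-1 and none in xpa-1 or the double mutant against N2. gcs-1, the rate-limiting step of synthesis and a SKN-1 target like gst-4, was at 11.09, 11.04 and 11.31 in nth-1, 11.29 and 11.26 in xpa-1, 11.08 in both double mutant arrays, and 11.16 and 11.32 in N2. On this brighter probe set the single mutants overlap N2, and all 9 arrays lie between 11.04 and 11.32. Its differences from N2 there were -0.09 (95% confidence interval -0.42 to 0.23) in nth-1 and 0.04 (-0.32 to 0.39) in xpa-1, intervals that end below the rises of gst-4 in the same arrays. On the dimmer probe set of gcs-1, marked as shared, both xpa-1 arrays (10.74 and 11.10) lay above both of N2 (10.43 and 10.67). The nth-1 arrays there (10.93, 10.51 and 10.72) overlapped N2, and the double mutant was at 10.47 and 10.40. gss-1, glutathione synthetase, was at 11.15, 11.05 and 11.06 in nth-1, 11.17 and 11 in xpa-1, 10.56 and 10.34 in the double mutant, and 10.87 and 10.57 in N2. Its differences from N2 were not called (0.37, 0.36 and -0.27), but the double mutant was lower by 0.64 than nth-1 (adjusted p = 0.0155) and by 0.64 than xpa-1 (adjusted p = 0.023). With the BioC level as a block gss-1 kept only the call against xpa-1 (adjusted p = 0.0442, against 0.143 for nth-1). Its other probe set gave falls of 1.34 (adjusted p = 0.00532) and 1.45 (adjusted p = 0.00576) for the same comparisons, and both of its probe sets are marked as shared. On the brighter, both falls ended without either double mutant array, and that against xpa-1 without xpa-1 replicate 1 (highest adjusted p = 0.136 and 0.155).

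gsr-1, glutathione reductase, which returns oxidised glutathione to its thiol form, was the only one of these 5 genes called against N2. It was at 12.87, 12.97 and 12.64 in nth-1, 12.67 and 12.70 in xpa-1, 12.08 and 12 in the double mutant, and 12.31 and 12.39 in N2. Both single mutants lie above N2 and the double mutant lies below it without overlap. The rise of 0.48 in nth-1 was called (standard error 0.11, adjusted p = 0.0307, highest 0.227 when nth-1 replicate 1 or 2, or a double mutant or N2 array, was left out), and the differences of 0.34 in xpa-1 and -0.31 in the double mutant were not (adjusted p = 0.112 and 0.148) unless nth-1 replicate 3 was left out (adjusted p = 0.0189 and 0.027). Against the single mutants gsr-1 fell in the double mutant by 0.79 (adjusted p = 0.00143) and 0.65 (adjusted p = 0.00454), calls that remained without any 1 array. With the BioC level as a block the difference was -0.76 against nth-1 (adjusted p = 0.081) and -0.63 against xpa-1 (adjusted p = 0.0254), and the rise in nth-1 over N2 was 0.45 (adjusted p = 0.532). trxr-1, the cytosolic thioredoxin reductase with selenocysteine, and trxr-2, the mitochondrial one, differed from N2 by at most 0.35 in any strain, with no call. For trxr-1 the dimmer probe set was higher by 0.96 in the double mutant than in nth-1 (adjusted p = 0.0214) while the brighter differed by 0.02, so its 2 probe sets disagree.

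**Figure D4:**
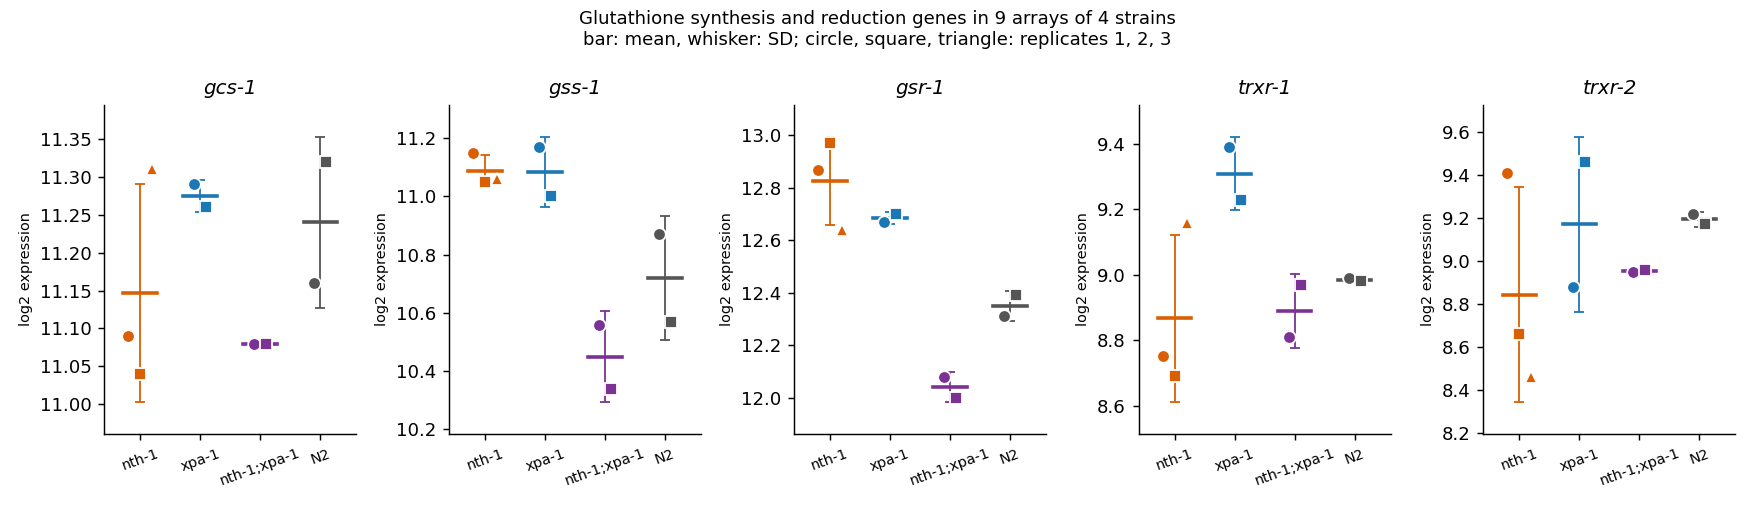
Log2 expression (y axis, scaled per gene) of gcs-1, gss-1, gsr-1, trxr-1 and trxr-2 in the 4 strains, with a symbol per array, the mean as a bar and the SD as a whisker. gsr-1 is above N2 in the single mutants and below it in the double mutant, while gcs-1 lies between 11.04 and 11.32 in all 9 arrays on its brighter probe set, the one drawn.

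gst-40 is the other member whose probe sets gave different calls. On the brighter it was at 7.11, 7.19 and 7.17 in nth-1, 7.45 and 7.19 in xpa-1, 7.59 and 7.54 in the double mutant, and 6.95 and 7.04 in N2, a rise of 0.57 in the double mutant with an adjusted p of 0.0497 that ended without any 1 array of N2, of the double mutant, or nth-1 replicate 1 or 2, with adjusted p values up to 0.268. On the dimmer the difference was -0.36 and not called. That probe set read 2.93 to 4.02, at percentile 0.6 of the probe sets, and its design name marks probes that may cross-hybridise. Its lack of a call therefore says little about gst-40.

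Set against the single mutants, the double mutant differed in 26 of the 56 genes from nth-1 (13 higher and 13 lower, 23.2% each, where 22.9% and 14.6% of all genes were called) and in 25 from xpa-1 (13 higher, 23.2%, and 12 lower, 21.4%, where 20.8% and 14.5% of all genes were called). The shares of genes higher in the double mutant were near those of all genes. Leaving out either double mutant array lowered both counts, and lowered the shares of all genes called as well. Of the 26 calls against nth-1, 16 remained whichever array was left out, and of the 25 against xpa-1, 11 did. Under the BioC block 7 of the 26 and 17 of the 25 remained. No member was called between xpa-1 and nth-1, where limma called 1 gene higher (0.00584%) and 2 lower (0.0117%) of all genes. At an unadjusted p below 0.05, 0 members were higher and 7 lower (12.5%) in xpa-1, where 5.07% of all genes were higher and 3.55% lower. As given above, xpa-1 replicate 2 was closer to nth-1 replicate 1 than to xpa-1 replicate 1, which limits what this comparison can show.

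The 2 losses were then compared across backgrounds, since xpa-1 was deleted both in wild type (xpa-1 against N2) and in nth-1 (the double mutant against nth-1), and these comparisons share no array. Of the 56 genes, 40 (71.4%) had opposite signs in the 2 backgrounds, against 71.9% of all genes. Across the 56 genes the Pearson correlation of the 2 differences was -0.784 and Spearman's rho -0.711, beside -0.567 and -0.587 over all genes. All 9 members called in both backgrounds had opposite signs, as did 96.8% of all genes called in both (1373 of 1418), so the members do not stand apart in this. For loss of nth-1 (nth-1 against N2, and the double mutant against xpa-1) 36 genes (64.3%) had opposite signs, against 70.6% of all genes, with a Pearson correlation of -0.792 and Spearman's rho of -0.734, beside -0.538 and -0.534 over all genes. Here 14 of 14 members called in both backgrounds were opposite, near the 97.8% of all genes (1272 of 1300). These correlations are across genes, which are not independent replicates, and the points share arrays, so they are given without a p-value. The BioC level also moves with them, since N2 and the double mutant are at the high level and nth-1 at the low one.

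**Figure D5:**
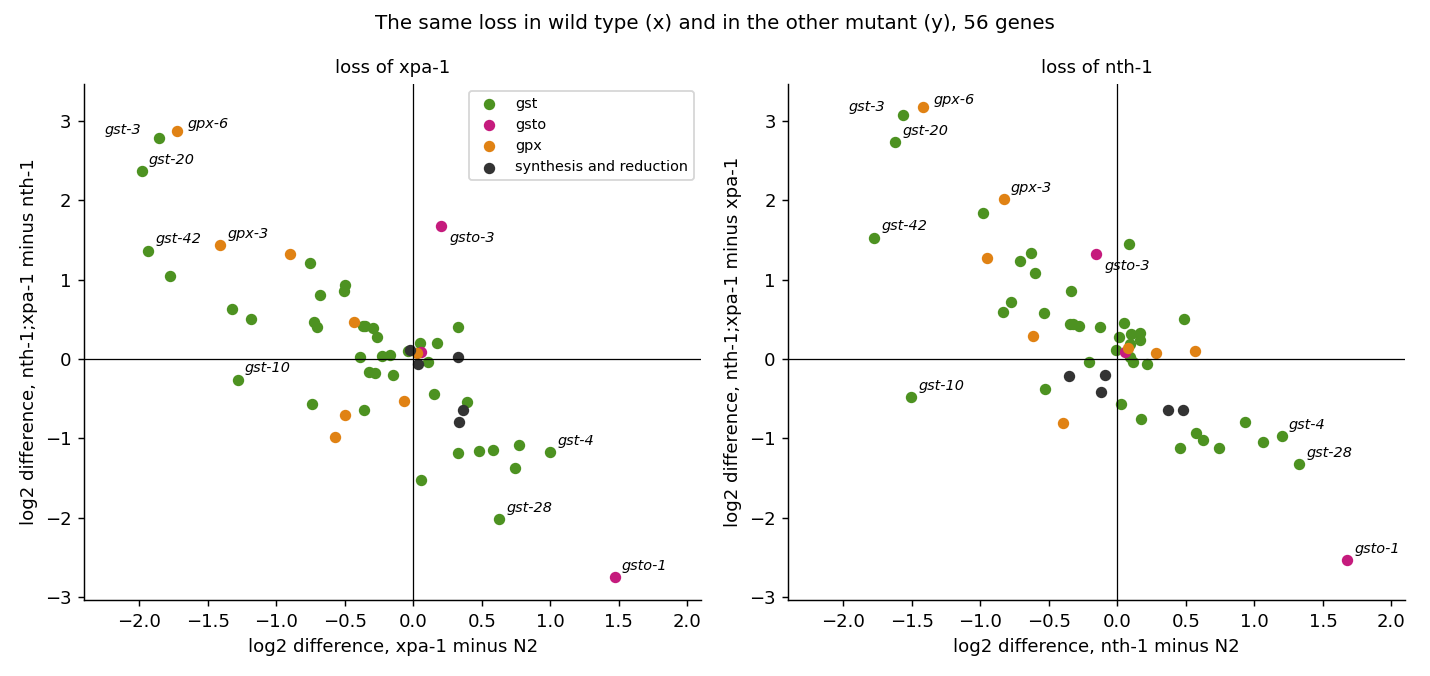
The log2 difference made by losing xpa-1 (left) or nth-1 (right) in wild type (x axis) against the difference made by the same loss in the other mutant (y axis), for 56 genes coloured by family. Most points lie in the upper left and lower right quadrants (40 and 36 of 56), with gst-3, gst-20, gst-42 and gpx-6 at one end and gsto-1 at the other, and gst-10 is negative on both axes.

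The difference between backgrounds was itself tested as the interaction, the effect of xpa-1 loss in nth-1 minus its effect in wild type. It was called in 29 of the 56 genes (51.8%), higher in 18 and lower in 11, where 24.8% of all genes were called higher and 15.2% lower. For gst-3 it was 4.64 (standard error 0.31, adjusted p = 6.52e-05), for gpx-6 4.59 (0.44, adjusted p = 0.000227), for gsto-1 -4.21 (0.24, adjusted p = 3.67e-05) and for gst-4 -2.17 (0.24, adjusted p = 0.000422). gst-10 was not called (1.02, adjusted p = 0.16, 95% confidence interval -0.19 to 2.24), nor were gpx-7 (-0.42, adjusted p = 0.387) and gcs-1 (-0.10, adjusted p = 0.733). Of the 29 calls, 21 remained whichever array was left out. With the BioC level as a block 9 remained: gpx-2, gpx-6, gst-3, gst-4, gst-7, gst-20, gst-22, gst-42 and gsto-1.

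Other genes that feed, control or run beside the glutathione system were counted by list. Of 14 measured genes that regulate SKN-1 none was called against N2, with median differences of -0.04 in nth-1, 0.17 in xpa-1 and 0.10 in the double mutant. Of 6 superoxide dismutase and catalase genes none was called against N2 either. Among 14 thioredoxin, glutaredoxin and peroxiredoxin genes, msra-1, a methionine sulphoxide reductase, rose by 0.84 in nth-1 (adjusted p = 0.0343), and trx-2, mitochondrial thioredoxin, fell by 0.76 in xpa-1 (adjusted p = 0.0147) and rose by 0.56 in the double mutant (adjusted p = 0.0447). Of 23 genes of cysteine supply and conjugate export, 3 rose (13%) and 1 fell (4.35%) in each mutant, where 2.8%, 3.36% and 4.5% of all genes rose and 7.62%, 7.52% and 4.59% fell in nth-1, xpa-1 and double mutants. sams-1, which makes S-adenosylmethionine, rose by 1.11 in nth-1 and by 1.36 in the double mutant, and mrp-5, an exporter known for heme, rose by 1.08 in nth-1 and by 0.92 in xpa-1. hmt-1, a transporter of phytochelatins, was at 9.46, 9.35 and 9.67 in nth-1, 10.25 and 10.10 in xpa-1, 8.10 and 8.26 in the double mutant, and 8.93 and 9.11 in N2, a rise of 1.16 in xpa-1 (adjusted p = 0.0118) and a fall of 0.84 in the double mutant (adjusted p = 0.0401). These calls were not recomputed without single arrays.

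Markers of tissues and stages moved with the strains as well. Against N2, 3.36% of all genes rose in xpa-1, and 4.5% rose and 4.59% fell in the double mutant. Of 8 oocyte and embryo genes, 2 rose in xpa-1 and 4 fell in the double mutant, and their mean was 11.49 to 11.85 in nth-1, 12.30 and 12.36 in xpa-1, 11 and 10.87 in the double mutant, and 11.69 and 11.74 in N2. Of 6 body wall muscle genes, 1 rose in xpa-1 and 2 rose in the double mutant, whose list means of 11.38 and 11.32 lie above the 10.22 and 10.37 of N2. Of 6 intestinal genes ges-1, the gut esterase, alone was called, with a fall of 1.38 in the double mutant (adjusted p = 0.0398), and their mean was 10.94 to 11.27 in nth-1, 10.79 and 11.37 in xpa-1, 11.06 and 11.02 in the double mutant, and 10.96 and 11.10 in N2. Of 6 sperm genes 1 rose in the double mutant, and no neuron or hypodermis gene was called against N2. The part of worm stage or tissue makeup in the changes of the glutathione genes was not tested.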

How the data were processed

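The deposited table holds log2 expression values that the authors computed in dChip (invariant-set normalization, model-based values from perfect-match probes only; its version is not given in the sources used here) for 22625 probe sets on 9 arrays. A value is relative to the other arrays only through that normalization, and no probe-level files were used. The methods state 3 replicates per strain, each from plates of its own, and replicates are read as separate cultures on that basis. The number of arrays limits the precision.

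From these values, a linear model with a coefficient for each strain (residual degrees of freedom, 5) was fitted in limma (version 3.58.1, under R 4.3.3; eBayes with trend), leaving out the 77 control probe sets. P-values were adjusted by Benjamini-Hochberg over 22548 probe sets, among which 20766 have a single gene symbol, 887 more than 1 and 895 no symbol. Where several probe sets measure a gene, the one with the highest mean stands for it. All 56 members were found in the RefSeq table (WBcel235), used for names and gene order only. The fit was tested on simulated data. Figures were drawn with matplotlib 3.10.9.

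Members and gene lists were chosen with earlier results of these data known. Genes named are gst-4, gst-10 and gpx-6, all gpx, gsto, synthesis and reduction genes, per mutant the 6 largest called rises and falls against N2, members whose probe sets disagree, and up to 4 called genes per list. A ranking of paralogs by protein identity could not be made here, so chromosomal neighbours stand in. gst-2 and the other members of the chromosomal groups were named after their values were seen. gst-1, gst-5 and gst-43 also fall outside these rules. Alternatives were quantile normalization, 32 added before the logarithm, no variance trend, a filter at the 40th percentile, the replicate number or the BioC level as a block, each pair of strains alone, a ratio of 1.8 with no test, the most changed probe set per gene, and leaving out each array. Crossed replicate numbers were added after seeing the data.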

Additional observations from a re-analysis of the deposited data

Results flagged for a closer look

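Losing xpa-1 had different effects in nth-1 and in wild-type worms in 17 of the named genes, by the test of that difference (the interaction, adjusted over all probe sets). Some of these were named for their large changes against N2, and the same test called 40% of all genes, so the count does not set them apart. The difference, as the log2 effect in nth-1 minus that in wild type, was positive for gst-3 (4.64, effects 2.79 and -1.85), gpx-6 (4.59, effects 2.87 and -1.72), gst-20 (4.35, effects 2.37 and -1.98), gst-42 (3.30, effects 1.37 and -1.93), gpx-3 (2.85), gpx-2 (2.22), gst-22 (1.95), gsto-3 (1.48) and gpx-4 (0.91). It was negative for gsto-1 (-4.21, effects -2.74 and 1.47), gst-28 (-2.65), gst-4 (-2.17, effects -1.17 and 1.0), gst-9 (-2.11), gst-6 (-1.73), gst-7 (-1.64), gsr-1 (-1.12) and gss-1 (-1.0). The adjusted p was highest for gsto-3 (0.023) and gss-1 (0.0109). In all but gsto-3 the effects in the 2 backgrounds had opposite signs. With the BioC level as a block 9 of the 17 remained called, and gpx-3, gpx-4, gst-6, gst-9, gst-28, gsto-3, gsr-1 and gss-1 did not (adjusted p 0.0734 for gpx-3 to 0.453 for gst-6). Single arrays ended 2 of the calls: either double mutant or N2 array or xpa-1 replicate 1 for gsto-3 (highest adjusted p = 0.0765), and double mutant replicate 2 or N2 replicate 2 for gss-1 (0.0603).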

How the results depend on the processing

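The calls against N2 rest on 2 arrays each of N2, xpa-1 and the double mutant. The 82 called differences are those of the genes named by rule, some of them chosen for large changes against N2. Calls of gst-5, gst-12, gst-16, gst-17, gst-43 and other members outside the rules are not counted. None of the 82 changed sign in the refits, which leave out the ratio with no test, the most changed probe set and crossed numbers. With 32 added 80 remained called, without the variance trend 78, and with quantile normalization 73. The filter kept 76 of 78, and each pair fitted alone 54 of 65. With the BioC level as a block 42 remained. Outside the 82, that block kept only the calls of gst-16, gst-29 and gst-44 in the double mutant against xpa-1. Quantile normalization moved the median of all genes by -0.117 for the double mutant against nth-1 and by -0.11 for the double mutant against xpa-1, and the members' median in the first then became -0.08, against 0.07. Of 107 uncalled differences, 37 of 1692 recomputed values were called and 97 changed sign.

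With the BioC level as a block the count of members called became 0 of 17 in nth-1, 5 of 11 in xpa-1, 8 in the double mutant against nth-1 (26 before) and 9 for the interaction (29 before). The shares of all genes called were 0.473% in nth-1, 3.58% in xpa-1 and 5.02% in the double mutant against nth-1. Each pair of strains alone gave 5 in nth-1, 17 in xpa-1 and 23 in the double mutant, all against N2. The shares of all genes called were then 4.73%, 18.6% and 44.9% in that order. A ratio of 1.8 with no test gave 11 in nth-1 and, for xpa-1 against nth-1, 3. Leaving out each array in turn gave 2 to 25 calls in nth-1, 4 to 23 in xpa-1 and 0 to 18 in the double mutant against N2, 16 to 33 in the double mutant against nth-1, 11 to 37 against xpa-1, 0 to 1 for xpa-1 against nth-1, and 22 to 35 for the interaction. The highest counts all came without nth-1 replicate 3, where 51.9% of all genes were called in the double mutant against nth-1. Without that array 50.9% were called against xpa-1 and 4.85% for xpa-1 against nth-1. The cause of these shifts was not tested.

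The replicate numbers do not pair the arrays: the deviations of same-numbered arrays correlated at -0.262 to 0.104. Only nth-1 has a replicate 3, so a block by number gives that array a level of its own, which sets it aside as leaving it out does. With the replicate number as a block the members called became 24 in nth-1, 20 in xpa-1 and 17 in the double mutant against N2 (20 with that pair of strains alone), 30 in the double mutant against nth-1, 33 against xpa-1, 0 for xpa-1 against nth-1 and 34 for the interaction, and 81 of the 82 named calls remained. The shares of all genes called against N2 were 23.4%, 24.5% and 23.2%. They were 48.7% and 47.9% in the double mutant against nth-1 and xpa-1, and 3.42% for xpa-1 against nth-1. With the numbers crossed, the replicate block on the pair alone gave 22 calls in the double mutant against N2 and 29 against xpa-1.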
